A study of Arabidopsis thaliana with 8 samples.

Results

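The comparison described here sets the lsm8-1 library from NaCl plates against the Col-0 library from NaCl plates, 2 of the 8 libraries of an Arabidopsis thaliana RNA-seq study that were chosen by their genotype and treatment labels. The lsm8-1 plants carried the lsm8-1 allele in the Col-0 background, and the Col-0 plants were wild type. Both sets were grown on 0.5X GM medium in long days at 90 µmol m-2 s-1, moved for 10 h to plates with 150 mM NaCl, and sampled as leaf tissue at an age of 2 weeks. The lsm8-1 and Col-0 libraries from GM plates without added NaCl are used for comparison. A further 4 libraries of the same genotypes came from soil at 20 °C or after 24 h at 4 °C. Light was 90 µmol m-2 s-1 at 20 °C and 40 µmol m-2 s-1 at 4 °C. The labels do not state how many plants a library holds or whether reads kept the strand of the RNA. Each genotype has 1 library per condition, so no difference given here has a replicate check and none was tested.

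LSM8 is the subunit that sets the nuclear LSM2-8 ring apart from the cytoplasmic LSM1-7 ring. The LSM2-8 ring binds the end of U6 small nuclear RNA, stabilises it, and so serves the spliceosome, which removes introns from pre-messenger RNA. Plants meet high salt with abscisic acid (ABA), a hormone that rises on water deficit and turns on genes for protective proteins such as dehydrins, and with ion transport and osmolyte synthesis.

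The lsm8-1 library held 34.02 M uniquely placed reads (M, 1000000 reads) and the Col-0 library 33.96 M, and a read was found for 25169 loci in at least 1 of them. Levels are counts per 1000000 reads (CPM) after scaling by the trimmed mean of M-values (TMM, a factor that evens out the bulk of genes), 0.977 in lsm8-1 and 1.06 in Col-0. Differences are log2 ratios of CPM + 1, lsm8-1 over Col-0. A gene is given as 2-fold higher or lower by this log2 ratio, at 1 or -1 and beyond. Other folds are ratios of CPM without the added 1, with exact Clopper-Pearson 95% intervals that cover counting error only. Counted were the 14443 genes that reached 5 CPM in lsm8-1, in Col-0 or in both. A gene with no read may have had up to 3 counts, 0.0903 CPM in lsm8-1 and 0.0834 CPM in Col-0.

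LSM8 itself (AT1G65700, chromosome 1) had 29 reads in lsm8-1 and 208 reads in Col-0 with NaCl, 0.873 CPM against 5.78 CPM. Its level in lsm8-1 was 0.151 of that in Col-0 (0.0987 to 0.223), a log2 ratio of -1.86, beside -1.75 on GM, -1.48 at 20 °C and -1.17 at 4 °C. The reads of the lsm8-1 library covered 42.4% of the transcript, and those of Col-0 covered 80.2%. Where the remaining reads lie relative to the mutation was not analysed here. Of the 10 LSM family genes counted, LSM8 was the 1 member that differed by 2-fold, and the other 9 lay between -0.29 for LSM1A, a subunit of the cytoplasmic ring, and 0.50 for LSM3B, a subunit of both rings. Among 25 counted splicing factor genes, which code for proteins of the spliceosome and its regulators, none differed by 2-fold. Over all counted genes 4.38% did, and over loci with several models 2.02%, so none among 25 is near the overall share. The median log2 ratio of the 25 genes was 0.00, and it turned to -0.10 when libraries were scaled by their totals. For 15 of these 25 genes the deposited tables list several transcript models, whose summed reads may also move with the use of the models.

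With NaCl, 411 of the 14443 counted genes (2.85%) were at least 2-fold higher in lsm8-1 and 222 (1.54%) were at least 2-fold lower, 633 (4.38%) in either direction. At least 4-fold, 104 genes were higher and 14 lower. The split depended on the scaling. By library totals 335 genes were higher and 338 lower, a share of higher genes of 49.8% against 64.9% with TMM, and the median of all genes was -0.12 against -0.01. Because 5 CPM in 1 library sufficed, a gene could be counted through its higher library alone, and 230 of the 411 and 154 of the 222 reached 5 CPM in both. Loci with 1 listed transcript model numbered 12068, of which 385 were higher (3.19%) and 200 lower (1.66%), 4.85% in either direction, with a median of 0.00. Of the 2375 loci with several models 26 were higher (1.09%) and 22 lower (0.926%), 2.02% in either direction, with a median of -0.07.

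On GM the same count gave 230 higher genes (1.63%) and 256 lower genes (1.81%) among 14139, 3.44% in either direction. In soil 86 (0.641%) were higher and 64 (0.477%) lower at 20 °C, 1.12% in either direction, and 194 (1.45%) were higher and 99 (0.742%) lower at 4 °C, 2.2% in either direction. The NaCl and GM pairs share no library. Of the genes higher in lsm8-1, 126 were higher in both pairs, 30.7% of those with NaCl and 54.8% of those on GM. Of the genes lower in lsm8-1, 49 were lower in both pairs, 22.1% of those with NaCl and 19.1% of those on GM. By the log2 ratio of CPM + 1, 168 of the 411 higher genes and 108 of the 222 lower genes lay under 1.5-fold in either direction on GM. No level was required on GM for this count. It includes genes near 0 CPM there, whose ratio the added 1 pulls to 0, such as AOX1D (0.413 CPM in lsm8-1, 0.174 CPM in Col-0). The share of all genes under 1.5-fold on GM was not counted. The genes that differed by 2-fold with NaCl therefore hold some with a like ratio on both kinds of plate. Others had a log2 ratio of CPM + 1 near 0 on GM, genes barely read there among them. Across the 13274 genes at 5 CPM in both pairs, Pearson's r between the log2 ratios was 0.61 and Spearman's rho 0.55, given as a description across genes, which are not independent. In all 4 pairs, soil included, 25 genes were at least 2-fold higher and 1, LSM8 itself, was at least 2-fold lower.

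**Figure D1:**
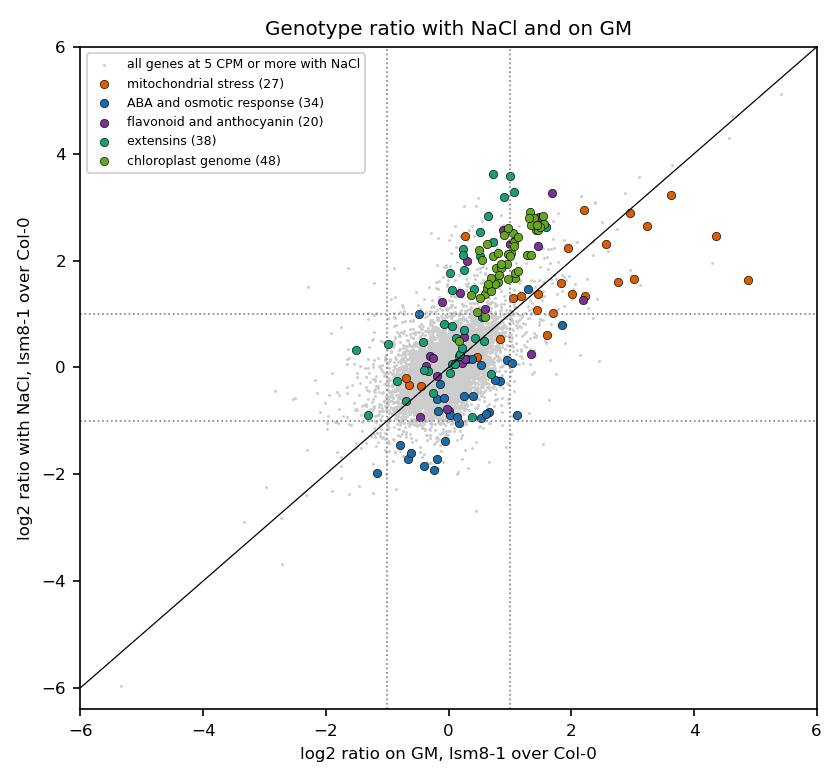
Log2 ratio of CPM + 1 (lsm8-1 over Col-0) with NaCl on the vertical axis and on GM on the horizontal axis, 1 point a gene, with 5 gene groups coloured, dotted lines at 2-fold and a solid line where both ratios are equal. Many extensin and chloroplast genome points lie above the solid line, and many ABA and osmotic response points lie below it.

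The highest log2 ratios belonged to genes that were close to silent in Col-0 and on genes of root hair walls and iron deficiency. AT4G04170, which codes for an uncharacterized protein, had 37.5 CPM (1245 reads) in lsm8-1 and 0.111 CPM (4 reads) in Col-0, 337-fold higher (131 to 1239). The lsm8-1 reads covered 43.4% of its transcript and the Col-0 reads 7.12%. On GM AT4G04170 had 41.6 CPM in lsm8-1 and no read in Col-0, so it was detected in lsm8-1 and barely or not at all in Col-0 on both plates. In soil it had 0.420 CPM at 20 °C and 0.0841 CPM at 4 °C in lsm8-1, and no read in Col-0. AT2G01422, annotated as a non-coding RNA, had 34.1 CPM in lsm8-1 and 0.334 CPM in Col-0, 102-fold higher (58.2 to 198). QQS (AT3G30720), a gene found in Arabidopsis alone that affects leaf starch, had 27.3 CPM in lsm8-1 and 0.445 CPM in Col-0, 61.5-fold higher (37.6 to 108). SADHU3-2 (AT3G42658), a retroelement, had 32.1 CPM in lsm8-1 and 1.39 CPM in Col-0, 23.1-fold higher (17.399 to 31.3). Their log2 ratios with NaCl were 5.11, 4.72, 4.29 and 3.79, close to those on GM of 5.41, 4.62, 4.57 and 3.64. These genes thus differed on both plates by about as much. The thionin gene AT1G66100, which codes for a small antimicrobial peptide, had 44.8 CPM in lsm8-1 and 3.75 CPM in Col-0, and the non-coding RNA gene AT4G04223, with 2 models, had 17.1 CPM in lsm8-1 and 0.945 CPM in Col-0. The other 9 of the 15 highest genes belong to the groups described below.

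The gene with the lowest ratio was AT3G01345, which codes for an uncharacterized protein. It had 3.88 CPM in lsm8-1 and 305 CPM in Col-0 with NaCl, 78.5-fold lower (65.98 to 94.1), and 12.0 CPM in lsm8-1 and 526 CPM in Col-0 on GM. AT3G58550, a lipid-transfer-like protein gene that overlaps a gene on the opposite strand, had 5.39 CPM in lsm8-1 and 81.2 CPM in Col-0, 15.1-fold lower (13.0 to 17.62). MLP328 (AT2G01520), a relative of the major latex proteins, had 10.9 CPM in lsm8-1 and 87.5 CPM in Col-0, 8.01-fold lower (7.18 to 8.96). Its neighbour MLP329 (AT2G01530) had 6.59 CPM in lsm8-1 and 34.7 CPM in Col-0. Both MLP genes were also lower on GM, at 26.2 CPM in lsm8-1 against 272 CPM in Col-0 and at 13.2 CPM in lsm8-1 against 110 CPM in Col-0 (log2 ratios of -3.33 and -2.97). The MLP genes are related in sequence, so reads that match both alike may be missing from these unique counts.

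Other low genes stood apart by their level on GM. AT2G22590, a UDP-glycosyltransferase gene, had 5.51 CPM in lsm8-1 and 41.0 CPM in Col-0 with NaCl, 7.45-fold lower (6.38 to 8.73), and 4.67 CPM in lsm8-1 and 3.16 CPM in Col-0 on GM. MYB305 (AT3G24310), a MYB transcription factor gene, had 4.21 CPM in lsm8-1 and 19.9 CPM in Col-0 with NaCl, 4.72-fold lower (3.94 to 5.70), and 1.02 CPM in lsm8-1 and 0.841 CPM in Col-0 on GM. For both genes the Col-0 library with NaCl was the high one of the 4 plate libraries. The remaining lowest genes were AT5G15360, BGLU19 (a beta-glucosidase), ANNAT7 (an annexin), AT1G77520 (an O-methyltransferase), AT3G21380 (a lectin), AT1G31690 (a copper amine oxidase), ARPN (a plantacyanin), AT4G26220 (a methyltransferase) and RPL3B (a ribosomal protein), with log2 ratios of -2.82 to -1.99. Each of these 9 also had a negative ratio on GM, from -2.73 for AT5G15360 to -0.85 for AT1G31690. Genes on the opposite strand overlap BGLU19 and RPL3B.

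**Figure D2:**
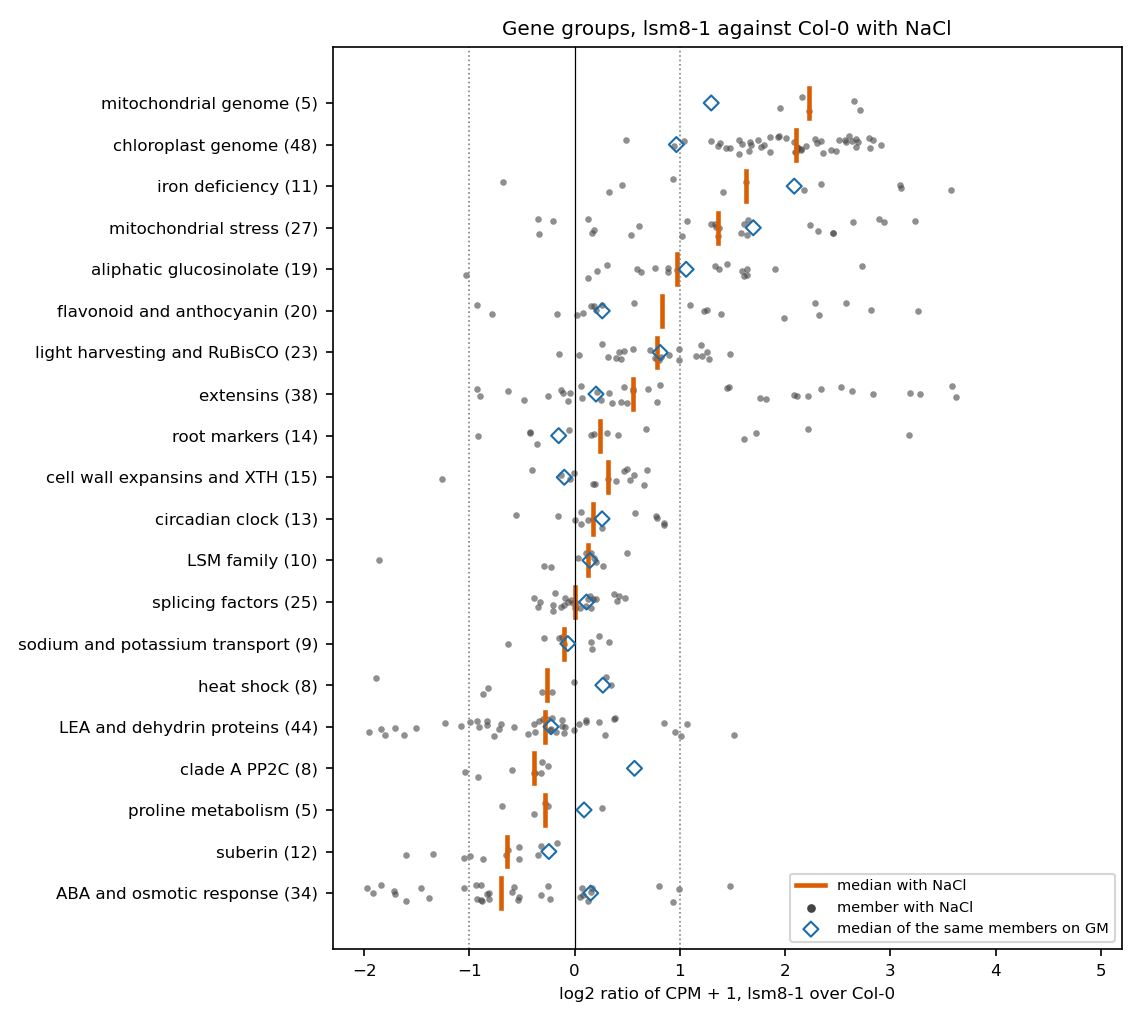
Log2 ratio of CPM + 1 (lsm8-1 over Col-0) with NaCl of each counted member (points) of 20 gene groups, with the group's median with NaCl (orange line) and the median of the same members on GM (blue diamond), the number of counted members in brackets and dotted lines at 2-fold. Medians range from 2.23 for the mitochondrial genome to -0.70 for ABA and osmotic response genes, where the median on GM was 0.15.

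Genes that respond to ABA and water deficit were lower in lsm8-1 with NaCl. Of 35 genes listed, all with a read, 34 were counted, and 24 of the 34 had a ratio below 0. At least 2-fold, 9 were lower and 1 was higher, beside 1.54% and 2.85% of all genes. The median log2 ratio of the 34 was -0.70, beside -0.01 for all genes, and the same 34 had a median of 0.15 on GM. All 9 lower members had 5 CPM or more in both libraries. Among the 20 members with 1 model, 5 were lower and the median was -0.73. COR47, a dehydrin, a protein that shields membranes and enzymes during water loss, had 1079 CPM in lsm8-1 and 3289 CPM in Col-0 with NaCl, 3.05-fold lower (3.01 to 3.08), and 547 CPM in lsm8-1 and 837 CPM in Col-0 on GM. LTI30, another dehydrin, had 336 CPM in lsm8-1 and 1103 CPM in Col-0 with NaCl, 3.28-fold lower (3.21 to 3.35), and 45.9 CPM in lsm8-1 and 52.4 CPM in Col-0 on GM. RD29A, a reporter of osmotic stress, had 1970 CPM in lsm8-1 and 5433 CPM in Col-0 with NaCl, 2.76-fold lower (2.73 to 2.78), and 204 CPM in lsm8-1 and 353 CPM in Col-0 on GM. In each genotype the NaCl library was above its own GM library for these genes, and the lsm8-1 NaCl library was below that of Col-0. COR15B, a chloroplast protein that overlaps a gene on the opposite strand, had 265 CPM in lsm8-1 and 1045 CPM in Col-0 with NaCl, 3.94-fold lower (3.85 to 4.03).

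RD29B, ERD10, COR15A and ALDH7B4, with 2 models each, were 3.84-fold (3.61 to 4.09), 3.60-fold (3.48 to 3.72), 3.30-fold (3.24 to 3.35) and 2.103-fold (1.95 to 2.27) lower. HB12, a homeodomain transcription factor of the ABA response, had 52.3 CPM in lsm8-1 and 138 CPM in Col-0 with NaCl, against 5.81 CPM in lsm8-1 and 6.09 CPM in Col-0 on GM. Not all stress genes followed. RD22, a dehydration marker, had 4578 CPM in lsm8-1 and 4119 CPM in Col-0 (0.15). KIN2, a small protein of cold and ABA responses, had 997 CPM in lsm8-1 and 946 CPM in Col-0 (0.08), whereas its close relative KIN1 had 538 CPM in lsm8-1 and 1034 CPM in Col-0 (-0.94). The lipid transfer protein gene LTP3 had 2915 CPM in lsm8-1 and 1671 CPM in Col-0 (0.80). DREB2B, a transcription factor of drought and heat responses that overlaps a gene on the opposite strand, was the higher member, with 44.7 CPM in lsm8-1 and 15.5 CPM in Col-0, 2.89-fold (2.62 to 3.19), and 12.5 CPM in lsm8-1 and 4.50 CPM in Col-0 on GM.

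The enzymes and brakes of the ABA pathway differed less. NCED3, the enzyme that limits ABA synthesis under stress, had 188 CPM in lsm8-1 and 282 CPM in Col-0 with NaCl, a ratio of 0.666 (0.645 to 0.688), and 12.9 CPM in lsm8-1 and 6.09 CPM in Col-0 on GM. Of the 5 counted genes of ABA synthesis and breakdown none differed by 2-fold, where 4.38% of all genes did, with a median of -0.45. The clade A protein phosphatases 2C hold ABA signalling in check and are themselves ABA-responsive. All 8 counted members had a ratio below 0 with NaCl and above 0 on GM, with medians of -0.38 and 0.57, and 1 was at least 2-fold lower with NaCl. That member, HAI3, had 51.6 CPM in lsm8-1 and 107 CPM in Col-0 with NaCl, and both of its GM libraries were under 1 CPM. HAI1 had 195 CPM in lsm8-1 and 370 CPM in Col-0 with NaCl, against 5.94 CPM in lsm8-1 and 2.38 CPM in Col-0 on GM. PP2CA, an abundant member in these libraries, had 489 CPM in lsm8-1 and 585 CPM in Col-0, a ratio of 0.837 (0.820 to 0.854).

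Related groups were near or below 0. Of 44 counted genes annotated as late embryogenesis abundant (LEA) proteins or dehydrins, 8 were lower and 3 higher, beside 1.54% and 2.85% of all genes. The median of the 44 was -0.28 (-0.22 on GM). LEA4-5 had 262 CPM in lsm8-1 and 747 CPM in Col-0 with NaCl, against 6.13 CPM in lsm8-1 and 4.47 CPM in Col-0 on GM. AT3G17520, another LEA gene, had 138 CPM in lsm8-1 and 426 CPM in Col-0 with NaCl. In both genes the Col-0 library with NaCl was the highest of the 4 plate libraries. All 12 genes of suberin synthesis and export had a ratio below 0 (median -0.64, -0.25 on GM). Of these 12, 3 were at least 2-fold lower, beside 1.54% of all genes. The LEA and suberin lists were chosen after their values were seen, so their common direction is a description only. Suberin is a lipid barrier of root endodermis and wounded tissue. MYB39, its transcription factor, had 6.77 CPM in lsm8-1 and 22.6 CPM in Col-0, 3.34-fold lower (2.88 to 3.89), FAR5, a fatty acyl reductase, was 2.60-fold lower (2.41 to 2.81) and CYP86B1, a fatty acid hydroxylase, 2.13-fold lower (1.95 to 2.32). The genes of proline metabolism (median -0.29 over 5) and of sodium and potassium transport (median -0.10 over 9) had no member at 2-fold. Over all genes 4.38% reached 2-fold in either direction. P5CS1, which makes the osmolyte proline and has 3 models, had 15.7 CPM in lsm8-1 and 20.8 CPM in Col-0, and SOS1, the sodium exporter, had 27.9 CPM in lsm8-1 and 30.4 CPM in Col-0. Of 8 counted heat shock genes 1 was lower, HSP22 of the endoplasmic reticulum, with 12.4 CPM in lsm8-1 and 48.6 CPM in Col-0. The median of the 8 was -0.26, and on GM it was 0.27 over the same 8 and 0.10 over the 6 counted there.

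**Figure D3:**
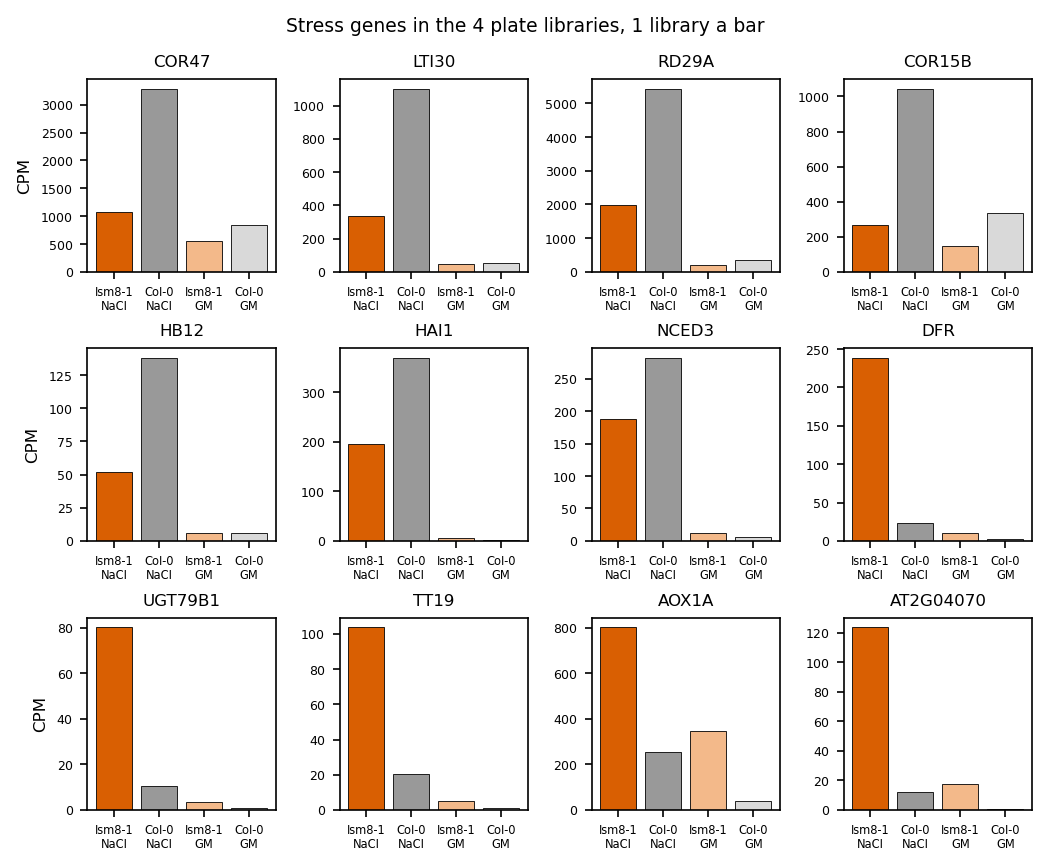
CPM (vertical axis, from 0) of 12 genes in lsm8-1 with NaCl, Col-0 with NaCl, lsm8-1 on GM and Col-0 on GM, 1 library a bar and no error bars. COR47, LTI30, RD29A, COR15B, HB12, HAI1 and NCED3 stand highest in Col-0 with NaCl, and DFR, UGT79B1, TT19, AOX1A and AT2G04070 stand highest in lsm8-1 with NaCl.

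Many genes of anthocyanin synthesis were higher in lsm8-1 with NaCl. Anthocyanins are the red and purple flavonoid pigments that shoots accumulate under stress. Of 26 flavonoid and anthocyanin genes, all with a read, 20 were counted, with a median of 0.83 (0.26 on GM). At least 2-fold, 10 were higher and none was lower, beside 2.85% and 1.54% of all genes. Of the 10, 9 reached 5 CPM in both libraries. DFR (AT5G42800), the reductase that opens the anthocyanin branch, had 239 CPM in lsm8-1 and 24.0 CPM in Col-0, 9.96-fold higher (9.28 to 10.7), and 10.2 CPM in lsm8-1 and 2.47 CPM in Col-0 on GM. UGT79B1, which adds xylose to anthocyanins, had 80.6 CPM in lsm8-1 and 10.6 CPM in Col-0, 7.61-fold higher (6.83 to 8.49). UGT75C1, which adds glucose to them, had 153 CPM in lsm8-1 and 24.8 CPM in Col-0, 6.16-fold higher (5.74 to 6.63). For all 3 enzymes the lsm8-1 library with NaCl was the highest of the 4 plate libraries. The malonyltransferase 5MAT was 5.64-fold higher (4.88 to 6.55), TT19, a glutathione transferase needed to store anthocyanin, 5.05-fold higher (4.66 to 5.48), and LDOX, the next enzyme after DFR and a locus with 2 models, 6.55-fold higher (4.69 to 9.35). UGT75C1 and TT19 overlap genes on the opposite strand.

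Other members of the list varied. TT7, a flavonoid hydroxylase that acts before DFR and also serves flavonols, had 34.0 CPM in lsm8-1 and 12.4 CPM in Col-0 (1.39). CHS, the first enzyme of the pathway and overlapped by a gene on the opposite strand, had 645 CPM in lsm8-1 and 436 CPM in Col-0 (0.56), and CHI, the next enzyme, had 86.1 CPM in lsm8-1 and 81.4 CPM in Col-0 (0.08). FLS1, the flavonol synthase, had 9.24 CPM in lsm8-1 and 16.6 CPM in Col-0 (-0.79), and MYB12, an activator of flavonol genes, had 6.77 CPM in lsm8-1 and 13.8 CPM in Col-0 (-0.93). FLS1 and MYB12 thus lay on the other side of 0 from DFR, while MYB111, another flavonol activator, was at 0.02. PAP1, the MYB activator of anthocyanin genes, had 104 CPM in lsm8-1 and 86.7 CPM in Col-0 with NaCl (0.26), against 3.40 CPM in lsm8-1 and 0.725 CPM in Col-0 on GM. Its partner TT8, a bHLH protein, had 12.3 CPM in lsm8-1 and 5.25 CPM in Col-0 (1.09), and MYBL2, a repressor of the same genes, had 21.0 CPM in lsm8-1 and 8.42 CPM in Col-0 (1.22).

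Several genes of root hair cell walls were higher in lsm8-1 with NaCl, most of them counted through lsm8-1 alone, in samples labelled leaf tissue. Extensins are glycoproteins that cross-link in the cell wall, and several are made in root hairs. Of 53 genes annotated as extensins or extensin-like, 38 were counted, with a median of 0.56 (0.20 on GM). At least 2-fold, 15 were higher and none lower, beside 2.85% and 1.54% of all genes. Of those 15, 12 were counted through lsm8-1 alone and so had to be higher there, though not by 2-fold. The 23 members at 5 CPM in both libraries had a median of 0.36, and 3 of them were at least 2-fold higher. EXT13 (AT5G35190) had 26.4 CPM in lsm8-1 and 1.22 CPM in Col-0 with NaCl, 21.6-fold higher (15.96 to 30.0), and 60.5 CPM in lsm8-1 and 36.4 CPM in Col-0 on GM. EXT6 (AT2G24980) had 40.4 CPM in lsm8-1 and 2.45 CPM in Col-0 with NaCl, 16.5-fold higher (13.3 to 20.7), and 58.3 CPM in lsm8-1 and 28.6 CPM in Col-0 on GM. In both genes Col-0 with NaCl was the low library, and the other 3 plate libraries lay far above it. EXT12 was 19.8-fold higher (13.8 to 29.5) and EXT10, which overlaps a gene on the opposite strand, 11.9-fold higher (9.71 to 14.6). AT3G54580, an extensin-like gene with more reads, had 305 CPM in lsm8-1 and 69.8 CPM in Col-0 with NaCl, 4.36-fold higher (4.17 to 4.56), and 445 CPM in lsm8-1 and 377 CPM in Col-0 on GM. Extensins hold repeats that are alike between members, so unique counts may miss part of their reads.

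Of the 20 genes annotated as root hair specific, 8 were counted and 7 of these were at least 2-fold higher, with a median of 1.86 (0.28 on GM). All 7 were counted through lsm8-1 alone. Each of them therefore had to be higher in lsm8-1, though not by 2-fold, and their count is not used as a result. The extensin and root hair specific lists were chosen after their values were seen. RHS19 had 17.0 CPM in lsm8-1 and 2.25 CPM in Col-0 with NaCl, against 30.9 CPM in lsm8-1 and 22.9 CPM in Col-0 on GM. PRP1, a proline-rich wall protein, had 13.8 CPM in lsm8-1 and 0.973 CPM in Col-0 with NaCl, against 12.7 CPM in lsm8-1 and 7.66 CPM in Col-0 on GM. Again Col-0 with NaCl was the lowest of the 4 libraries.

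Root markers were listed as well. All 15 had a read and 14 were counted, with a median of 0.24 (-0.15 on GM). At least 2-fold, 4 were higher and none lower, beside 2.85% and 1.54% of all genes. The 9 members at 5 CPM in both libraries had a median of -0.06. The 4 higher members were all counted through lsm8-1 alone and so had to be higher there, though not by 2-fold. They were PRP3, a wall protein, with 28.6 CPM in lsm8-1 and 2.28 CPM in Col-0, LRX1, a leucine-rich extensin also in the list above, with 21.3 CPM in lsm8-1 and 3.81 CPM in Col-0, EXPA7, an expansin that overlaps a gene on the opposite strand, with 16.2 CPM in lsm8-1 and 4.22 CPM in Col-0, and COBL9, with 6.38 CPM in lsm8-1 and 1.42 CPM in Col-0. CASP1, of the endodermal Casparian strip, had 25.8 CPM in lsm8-1 and 20.7 CPM in Col-0, and SCR, a regulator of the endodermis, had 51.6 CPM in lsm8-1 and 45.2 CPM in Col-0. BGLU23, a beta-glucosidase of root ER bodies, had 2007 CPM in lsm8-1 and 2696 CPM in Col-0. In soil at 20 °C SCR had 62.7 CPM in lsm8-1 and 73.8 CPM in Col-0, above its NaCl libraries, so SCR does not set plates apart from soil. BGLU23 had 71.9 CPM in lsm8-1 and 116 CPM in Col-0 there. The 15 markers summed to 2457 CPM in lsm8-1 and 3086 CPM in Col-0 with NaCl, and to 5139 CPM in lsm8-1 and 7840 CPM in Col-0 on GM, most of it BGLU23. Root transcripts were thus present in all 4 plate libraries. In bulk tissue, fewer cells of a type and less RNA of these genes per cell cannot be told apart. The share of root tissue in a library is not given by the labels, and its part in the results here was not tested. Flower markers were near absent, with 3 of 5 having a read and none counted, and AG and AP1 at 0 in both NaCl libraries.

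**Figure D4:**
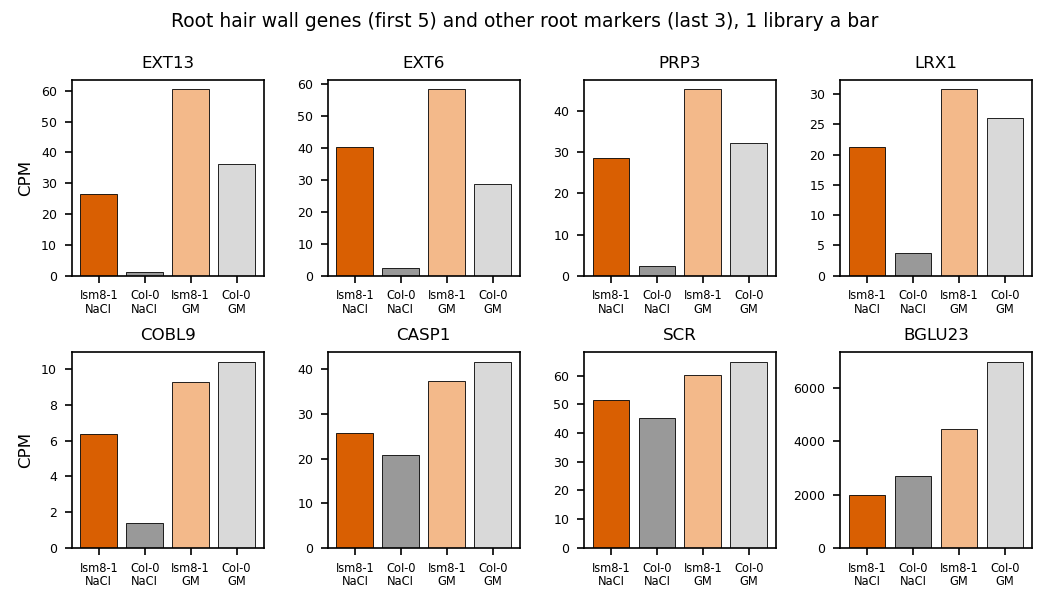
CPM (vertical axis, from 0) in lsm8-1 with NaCl, Col-0 with NaCl, lsm8-1 on GM and Col-0 on GM, 1 library a bar and no error bars, for the root hair genes EXT13, EXT6, PRP3, LRX1 and COBL9 and the other root markers CASP1, SCR and BGLU23. Col-0 with NaCl is the lowest bar for the first 5 genes, between 1.22 and 3.81 CPM.

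Genes that answer mitochondrial dysfunction were higher in lsm8-1 with NaCl, as on GM and in soil. When respiration is disturbed, transcription factors of the ANAC017 type turn on alternative oxidase, alternative NAD(P)H dehydrogenases and a set of detoxifying proteins. Of 29 genes listed, all with a read, 27 were counted. At least 2-fold, 19 were higher and none lower, beside 2.85% and 1.54% of all genes. The median of the 27 was 1.37 (1.70 on GM). In soil it was 2.47 over the 17 members counted at 20 °C and 2.54 over the 21 counted at 4 °C. Of the 19, 16 had 5 CPM or more in both libraries, and the 24 members at that level in both had a median of 1.36. AOX1A, the main stress-induced alternative oxidase, had 805 CPM in lsm8-1 and 256 CPM in Col-0 with NaCl, 3.14-fold higher (3.07 to 3.22), and 345 CPM in lsm8-1 and 41.4 CPM in Col-0 on GM. AOX1D, another alternative oxidase, had 68.3 CPM in lsm8-1 and 11.6 CPM in Col-0 with NaCl, 5.88-fold higher (5.29 to 6.54), and under 1 CPM in both GM libraries. NDB4, an alternative NAD(P)H dehydrogenase, had 32.0 CPM in lsm8-1 and 5.98 CPM in Col-0 with NaCl, 5.35-fold higher (4.62 to 6.22). In these members lsm8-1 with NaCl was the highest of the 4 plate libraries.

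The MATE transporter genes AT2G04070 and AT2G04050, neighbours of like sequence, had 124 CPM in lsm8-1 against 12.3 CPM in Col-0, and 386 CPM in lsm8-1 against 69.4 CPM in Col-0. UPOX (AT2G21640), a marker of oxidative stress, was 8.66-fold higher (7.44 to 10.1), and AT12CYS-2 (AT5G09570), a small mitochondrial protein, 17.0-fold higher (11.4 to 26.3). CYP81D8, a cytochrome P450 of xenobiotic responses, had 638 CPM in lsm8-1 and 213 CPM in Col-0 with NaCl, against 17.38 CPM in lsm8-1 and 4.18 CPM in Col-0 on GM. The P-loop NTPase gene AT2G18193 differed more on GM, with 179 CPM in lsm8-1 and 5.11 CPM in Col-0 there and 357 CPM in lsm8-1 and 114 CPM in Col-0 with NaCl (log2 ratios of 4.89 and 1.64). NAC017, the regulator itself, had 107 CPM in lsm8-1 and 95.6 CPM in Col-0 (0.16). OM66, an outer membrane protein, had 377 CPM in lsm8-1 and 247 CPM in Col-0 (0.61), NDA2, an internal dehydrogenase, had 22.3 CPM in lsm8-1 and 28.4 CPM in Col-0 (-0.34), and GSTU24, a glutathione transferase, had 124 CPM in lsm8-1 and 158 CPM in Col-0 (-0.35). Members named for the same response thus lay on both sides of 0.

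Some iron-deficiency genes were higher in lsm8-1 with NaCl, most of them counted through lsm8-1 alone. Of 17 genes listed, 16 had a read and 11 were counted, with a median of 1.63 (2.09 on GM). At least 2-fold, 7 were higher and none lower, beside 2.85% and 1.54% of all genes. Of the 7, 2 reached 5 CPM in both libraries, OPT3 and NAS4. The rest were counted through lsm8-1 alone and so had to be higher there, though not by 2-fold. The 5 members at 5 CPM in both libraries had a median of 0.45. BHLH38, a transcription factor of the iron response that overlaps a gene on the opposite strand, had 21.1 CPM in lsm8-1 and 0.862 CPM in Col-0 with NaCl, 24.5-fold higher (17.1 to 36.4), and 77.9 CPM in lsm8-1 and 8.21 CPM in Col-0 on GM. The iron-signalling peptide genes IMA1 (AT1G47400) and IMA2 (AT1G47395) are near-identical, so their counts are uncertain. They had 24.98 CPM and 31.5 CPM in lsm8-1 against 2.06 CPM and 2.78 CPM in Col-0 with NaCl. OPT3, a phloem iron transporter, had 391 CPM in lsm8-1 and 147 CPM in Col-0, 2.67-fold higher (2.58 to 2.75), and NAS4, which makes the iron chelator nicotianamine, was 3.19-fold higher (2.94 to 3.46). The root uptake genes did not differ by 2-fold. IRT1, the root iron transporter, had 8.01 CPM in lsm8-1 and 5.59 CPM in Col-0, and FIT, the root regulator of uptake, had 6.62 CPM in lsm8-1 and 11.2 CPM in Col-0. IRT1 and FIT thus differed less than OPT3 and NAS4. Ferritins store iron, and all 3 genes had a ratio below 0 (median -0.998, -0.67 on GM). FER1 had 193 CPM in lsm8-1 and 386 CPM in Col-0, FER4 had 15.4 CPM in lsm8-1 and 32.5 CPM in Col-0, with log2 ratios of -0.998 and -1.03, so that FER4 was counted as 2-fold lower and FER1 lay at that limit.

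Aliphatic glucosinolates are defence compounds made from methionine. Of 22 genes of their synthesis, 21 had a read and 19 were counted, with a median of 0.97 (1.06 on GM). At least 2-fold, 9 were higher and 1 lower, beside 2.85% and 1.54% of all genes. Of the 9, 8 had 5 CPM or more in both libraries. MAM1, the enzyme that starts chain elongation, had 427 CPM in lsm8-1 and 169 CPM in Col-0, 2.53-fold higher (2.45 to 2.61), and CYP83A1, of the core pathway, had 535 CPM in lsm8-1 and 175 CPM in Col-0, 3.06-fold higher (2.97 to 3.15). MAM3, which makes long chains, had 22.3 CPM in lsm8-1 and 2.50 CPM in Col-0 with NaCl, against 116 CPM in lsm8-1 and 79.6 CPM in Col-0 on GM. MAM3 was lowest in Col-0 with NaCl, as were the root hair genes. FMOGSOX4, a flavin monooxygenase of side-chain oxidation, was the lower member, with 554 CPM in lsm8-1 and 1134 CPM in Col-0 with NaCl and 60.2 CPM in lsm8-1 and 64.1 CPM in Col-0 on GM. The regulators MYB28 and MYB29 had 0.63 and 0.77 (log2 ratios). Of 11 counted genes of indole glucosinolates and camalexin 1 was higher, PAD3, the last enzyme of camalexin synthesis, with 71.9 CPM in lsm8-1 and 24.8 CPM in Col-0 with NaCl and 8.29 CPM in lsm8-1 and 10.6 CPM in Col-0 on GM. All 8 counted sulfur assimilation and deficiency genes had a ratio above 0 with NaCl (median 0.37). On GM 7 of the 8 had a ratio below 0 (median -0.54). None differed by 2-fold with NaCl, where 4.38% of all genes did. SDI1, a sulfur-deficiency marker, had 67.4 CPM in lsm8-1 and 38.6 CPM in Col-0.

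Most light-harvesting and RuBisCO genes, which mark green tissue, were higher in lsm8-1 on both kinds of plate. All 23 were counted with NaCl, with a median of 0.78 (0.81 on GM). In soil the median of the 23 was -0.07 at 20 °C and 0.29 at 4 °C. At least 2-fold with NaCl, 6 were higher and none lower, beside 2.85% and 1.54% of all genes. All 6 reached 5 CPM in both libraries. Together the 23 genes had 86121 CPM in lsm8-1 and 50873 CPM in Col-0 with NaCl, and 100521 CPM in lsm8-1 and 66694 CPM in Col-0 on GM. LHCB1.5, an antenna protein of photosystem II, had 17682 CPM in lsm8-1 and 7279 CPM in Col-0, and LHCB2.2, another, had 914 CPM in lsm8-1 and 328 CPM in Col-0. RBCS1A, a small subunit of RuBisCO with 2 models, had 2082 CPM in lsm8-1 and 2028 CPM in Col-0 (0.04). The 4 RuBisCO small subunit genes had log2 ratios of 0.04 to 0.42. The light-harvesting genes ranged more widely, from -0.15 for LHCB1.1 to 1.48 for LHCB2.2. LHCB1.5, LHCB3 and LHCB4.2 overlap genes on the opposite strand, and LHCB1 genes are near-identical copies. The higher level of leaf genes moved with the genotype on both plates, and its part in the other results was not tested.

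Reads from the organelle genomes were few in both libraries and more frequent in lsm8-1. Loci of the chloroplast genome took 0.205% of reads in lsm8-1 (0.2035 to 0.2065, Wilson 95% interval) and 0.0506% in Col-0 (0.0498 to 0.0514) with NaCl, and 0.109% in lsm8-1 and 0.0590% in Col-0 on GM. Loci of the mitochondrial genome took 0.113% in lsm8-1 and 0.0227% in Col-0 with NaCl, and 0.0791% in lsm8-1 and 0.0225% in Col-0 on GM. The lsm8-1 NaCl library was the highest of the 4 plate libraries in both shares. Of 48 counted chloroplast loci 46 were at least 2-fold higher and none lower, beside 2.85% and 1.54% of all genes. The median of the 48 was 2.098 (0.97 on GM). Of the 46, 21 reached 5 CPM in both libraries. The rest were counted through lsm8-1 alone and so had to be higher there, though not by 2-fold. The 22 loci at 5 CPM in both libraries had a median of 2.14. The ratios ran from 0.49 for ATCG00190 to 2.91 for ATCG00520. Of 56 mitochondrial loci with a read 5 were counted, and all 5 were at least 2-fold higher, with a median of 2.23. Of these, 3 reached 5 CPM in both libraries, also with a median of 2.23, and the others were counted through lsm8-1 alone. ATMG01390 had 540 CPM in lsm8-1 and 81.3 CPM in Col-0. Both organelle lists were chosen after their values were seen. In soil the chloroplast share was 1.101% in lsm8-1 and 1.48% in Col-0 at 20 °C, and 1.04% in lsm8-1 and 1.08% in Col-0 at 4 °C, so the order of the genotypes there was the reverse. The cause of these differences in shares was not tested.

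For the remaining lists the share over all genes was 2.85% higher and 1.54% lower. Of 15 counted jasmonate genes 2 were higher, AOC1 and AOC2, similar copies of the cyclase of jasmonate synthesis, with 154 CPM in lsm8-1 against 40.1 CPM in Col-0, and 966 CPM in lsm8-1 against 419 CPM in Col-0. LOX2 and AOS, enzymes of the same pathway, had log2 ratios of 0.92 and 0.87, and the median of the 15 genes was -0.08. Of 9 counted salicylic acid genes 2 were higher. FMO1, which makes the mobile defence signal N-hydroxypipecolic acid, had 8.999 CPM in lsm8-1 and 2.47 CPM in Col-0, and WRKY38, a transcription factor, had 7.98 CPM in lsm8-1 and 2.95 CPM in Col-0. Both were counted through lsm8-1 alone, and the group's median was -0.12. None of 13 clock genes (median 0.18), 4 flowering genes (0.22), 7 senescence genes (-0.55), 5 phosphate genes (0.17), 11 cell division genes (0.14), 3 seed markers (-0.22) or 9 housekeeping genes (0.05, turning to -0.05 by library totals) differed by 2-fold, where 4.38% of all genes did. FLC, the repressor of flowering, was too low to be counted, with 2 reads in lsm8-1 and 98 reads in Col-0 with NaCl, a ratio of 0.0221 (0.00264 to 0.0820), and no read in lsm8-1 against 2.64 CPM in Col-0 on GM. Of 11 plasma membrane aquaporins PIP2;3 was lower, with 20.5 CPM in lsm8-1 and 44.1 CPM in Col-0, and the median of 0.10 turned to -0.02 by library totals. Of 15 expansin and xyloglucan enzyme genes of wall loosening (median 0.31, -0.10 on GM) EXPA10, which has 2 models, was lower, with 36.8 CPM in lsm8-1 and 89.4 CPM in Col-0 with NaCl and 62.8 CPM in lsm8-1 and 30.5 CPM in Col-0 on GM.

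The ratio with NaCl declined with the number of exons a gene has. Since LSM8 acts in splicing, loci with 1 model were grouped by the exons of the annotation. Genes with 1 exon (1940) had a median log2 ratio of 0.19, those with 2 exons (1707) 0.14, those with 3 to 4 exons (2513) 0.07, those with 5 to 8 exons (2966) -0.04, those with 9 to 14 exons (1898) -0.15 and those with 15 or more (816) -0.27. A ratio below 0 was found for 32.4% of the genes with 1 exon and 86.6% of those with 15 or more. At least 2-fold, 5.31% of the genes with 1 exon were higher and 1.86% lower, and of those with 15 or more 0.735% were higher and 1.35% lower, so the 2-fold lower share did not grow with exon number. The spread within a class was wide, with the middle 50% of genes with 1 exon between -0.08 and 0.45, and the shift between classes is small beside the 2-fold count. Among transcripts of 1500 to 2000 bases the medians of the 6 classes were 0.21, 0.11, 0.07, -0.05, -0.13 and -0.18, so the order was also present at like length. Genes with more exons were also at higher levels, with a median in Col-0 of 19.5 CPM for 1 exon and 46.8 CPM for 15 or more. On GM the medians of the end classes were 0.05 and -0.10, at 20 °C they were -0.11 and 0.05 and at 4 °C -0.07 and -0.03. The part of the level in the trend was not tested. The median coverage of 2817 features at 20 to 50 CPM in both libraries was 98.5% in lsm8-1 and 98.6% in Col-0.

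**Figure D5:**
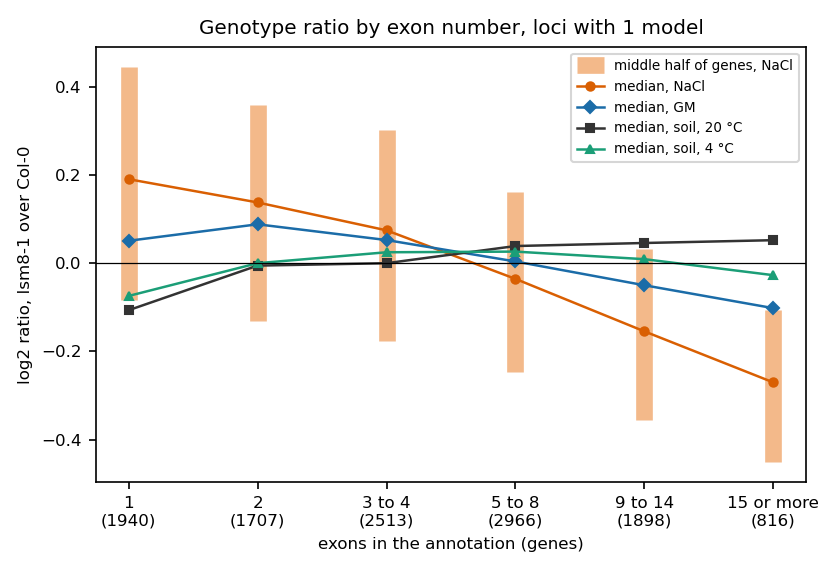
Median log2 ratio of CPM + 1 (lsm8-1 over Col-0, vertical axis) by number of exons (horizontal axis, genes in brackets) for loci with 1 model, with NaCl, on GM, at 20 °C and at 4 °C, with the middle 50% of genes with NaCl as bars. The NaCl medians run from 0.19 for 1 exon to -0.27 for 15 or more.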

How the data were processed

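The deposited tables hold, per the file headers, a count of uniquely placed reads for each transcript model (plates) or gene (soil), beside its length, coverage and RPKM. These deposited counts added up to the header's total, and features not listed were therefore taken as 0. The deposited RPKM equalled count over length and total and were not used further. The genome build was TAIR10 per the submitters' processing notes, and the aligner and counter were not given in the sources used here. Chromosomes, exons and names came from RefSeq's TAIR10.1 annotation, so no coordinates are given.

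Model counts were summed per locus and scaled by TMM (edgeR 4.0.16, R 4.3.3) over the 4 salt libraries, and the 4 cold libraries apart. A pseudocount of 1 CPM, a filter of 5 CPM in at least 1 library and a fold of 2 were used. Wilson and Clopper-Pearson 95% intervals were made in Python 3.11.15. With no molecular identifiers, reads need not be independent molecules.

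The members and the gene lists were chosen with earlier results of these data known. The suberin, extensin, root hair specific, LEA and organelle genome lists were chosen after their values were seen. The genes named were the 15 highest and 15 lowest log2 ratios, LSM8, up to 8 members of each list with the largest ratios in either direction and members a sentence needed. Scalings, filters, pseudocounts and model choices were varied. Loci overlapping on opposite strands were left out in 1 alternative, added with the data in view.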

Additional observations from a re-analysis of the deposited data

Results flagged for a closer look

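Among the 34 lists with a median and the 513 genes that were listed or named, those are given here whose log2 ratio of lsm8-1 to Col-0 had opposite signs with NaCl and on GM, with a size of at least 0.25 (list medians) or 0.5 (genes) on both. Smaller differences in sign and genes outside these lists are not given. The difference between the plates was not tested, since each group has 1 library. The median log2 ratio of the sulfur deficiency and assimilation genes was 0.37 with NaCl and -0.54 on GM. That of the clade A protein phosphatases 2C, which restrain ABA signalling, was -0.38 with NaCl and 0.57 on GM. That of the 8 heat shock genes counted with NaCl was -0.26 with NaCl and 0.27 on GM. Over the 6 heat shock genes that reached 5 CPM on GM the GM median was 0.10, with 3 above 0 and 3 below. That value is under the limit of 0.25 used here. NCED3 of ABA synthesis had -0.58 with NaCl and 0.97 on GM. The phosphatase genes HAI3 and HAI1 had -1.04 and -0.92 with NaCl, against 0.66 and 1.04 on GM. The ABA-responsive genes KIN1 and RAB18 had -0.94 and -0.83 with NaCl, against 0.52 and 0.66 on GM. GOLS1 and GOLS2, which make the osmolyte precursor galactinol, had -0.88 and -0.89 with NaCl, against 0.61 and 1.11 on GM. YLS9 and AT2G46150, annotated with the LEA proteins, had 0.95 and 0.85 with NaCl, against -0.89 and -0.75 on GM. RAB18, with 2 models, and GOLS1 overlap genes on the opposite strand. The expansin gene EXPA10 had -1.26 with NaCl and 1.02 on GM. The heat shock and phosphatase groups include genes at low levels on GM, where counts are few and a log2 ratio of CPM + 1 understates the fold.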

How the results depend on the processing

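Each group has 1 library, so no replicate could be left out. No paired analysis was possible because the labels give no replicate numbers and each group holds 1 library. The 411 higher genes became 227 with a filter of 20 CPM and 270 with a pseudocount of 5 CPM. The 222 lower genes became 128 and 100 under these settings and 338 with scaling by library totals. Higher iron-deficiency members numbered 4, and higher light-harvesting members 3, without loci that overlap another gene on the opposite strand, an alternative chosen after seeing the data. With the filter of 20 CPM, 26 chloroplast genome loci, 7 extensins and 0 root hair specific genes were higher, with fewer genes counted by construction. Root hair specific genes numbered 11 without a filter and with one of 1 CPM, and 3 with a pseudocount of 5 CPM. Lower ABA and osmotic genes numbered 5 among loci with 1 model. The cause of the change with scaling by totals was not tested. Of 474 list medians under alternatives 80 moved by more than the median counting interval of their genes allows (log2 scale, to either side) and 394 did not. Of 3618 values of the 272 genes chosen for naming 250 moved by more than their own counting interval, and no gene or list median at 2-fold changed sign. The medians of the splicing factors, plasma membrane aquaporins and housekeeping genes changed sign with the scaling. At this depth the iron genes FRO2 and PYE, for example, stayed under 5 CPM and were not counted.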
